A study of Homo sapiens with 6 samples.

Results

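Messenger RNA of 10 genes of the endoplasmic reticulum (ER) unfolded protein response was followed across HEK293T cells in which the RNA helicase DDX3X was depleted or overexpressed. The 10 genes, chosen by symbol, were HSPA5, HSP90B1, DNAJC3, DNAJB9, SDF2L1, PDIA4, CRELD2, MANF, HERPUD1 and XBP1, of 23204 genes in the deposited tables. All 10 were present, and where a symbol had several rows the row with the highest mean over the 6 libraries was kept. All 10 also passed the filter on low values in each of the 8 comparisons described here, which asked for at least 1 RPKM and at least 10 reads in at least 1 of the 2 libraries compared. RPKM is the number of reads scaled to the length of the transcript and to the total reads of the library, so levels of different genes can be compared on it.

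HEK293T is a human embryonic kidney line that carries the large T antigen of simian virus 40. In the siRNA arm, cells received a control siRNA or an siRNA against DDX3X for 48 h. In the plasmid arm, cells were transfected with 5 µg of plasmid for either GFP alone or GFP fused to DDX3X, in its wild-type form or as the T275M or G302V mutant, grown for 32 h and sorted for GFP, whereas no sorting is described for the siRNA arm. The constructs were expressed transiently in cells that kept their own DDX3X gene, T275M and G302V are mutants seen in medulloblastoma, and each of the 6 groups held 1 library. A figure legend of the study gives a different mutant beside G302V for the plasmid RNA-seq. The groups here follow the labels, and what is called T275M is known by its label alone. With 1 library a group there is no measure of spread between replicates, so no p-value is given, and the interval beside a ratio is a 95% counting interval. Reads were not tagged by molecule, so these intervals cover counting error only, and a ratio compares 2 libraries rather than 2 conditions.

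The ER folds secreted and membrane proteins, and when unfolded proteins accumulate there the sensors IRE1, ATF6 and PERK are activated. IRE1 splices the mRNA of the transcription factor XBP1 and ATF6 is cut by proteases in the Golgi, and both factors then switch on chaperones, disulfide isomerases and degradation factors such as the 10 genes described here. PERK instead phosphorylates the translation initiation factor eIF2α and raises ATF4, whose targets include amino acid synthesis enzymes and transporters. The ATF4 genes were therefore read as a list of their own.

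The siRNA left DDX3X at 31.3 RPKM against 106.9 RPKM in its control, which is 29.3%. The GFP library held 118.7 RPKM of DDX3X, and the transfected libraries held 2894 (wild type), 3279 (T275M) and 1906 RPKM (G302V). Depth ran from 43720000 reads (G302V) to 180870000 (DDX3X siRNA). The labels call these cells HEK293T and also neuronal. Of 11 neuron markers 5 reached 1 RPKM in any library, the excitatory neuron transporter SLC17A6 was listed at 0 in all 6, and the summed level of the list was 15.6 to 22.9 RPKM. TUBB3, the most abundant of these, lay between 5.60 and 9.28 RPKM. Markers of a kidney-derived line summed to 295 to 353 RPKM, with 213 to 277 RPKM of VIM alone. Of these 7 markers 5 reached 1 RPKM in any library. The lowest were PAX8 (0 to 0.0088 RPKM), PAX2 (0.21 to 0.69 RPKM) and CDH1 (0.94 to 1.45 RPKM), so the sum mostly reflects VIM. In bulk libraries, fewer cells of a kind and less RNA per cell cannot be told apart.

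The promoters of several members hold the letters to which ATF6 and XBP1 are known to bind, and these are shown because the list was chosen as targets of those 2 factors. The ER stress response element (ERSE) was searched as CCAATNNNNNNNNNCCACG and the shorter ERSE-II as ATTGGNCCACG, on both strands, in RefSeq promoters of 250 bases before to 50 bases after each start (RefSeq table of GRCh38.p14). ERSE was found in 27 of 35116 promoters (0.0769%) and in those of 4 members. ERSE-II was found in 19 promoters (0.0541%) and in those of 2 members, and no promoter of a member held both. The 7 matches are printed on the strand of the gene with 5 bases on each side, and capitals mark the element, which reads backwards (its reverse complement) in the near match of HSP90B1, in CRELD2 and in SDF2L1.
HSPA5: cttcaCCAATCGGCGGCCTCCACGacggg
HSP90B1, far match: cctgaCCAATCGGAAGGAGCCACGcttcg
HSP90B1, near match: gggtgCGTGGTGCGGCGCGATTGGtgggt
CRELD2: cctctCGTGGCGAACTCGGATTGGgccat
XBP1: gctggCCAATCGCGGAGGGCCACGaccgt
HERPUD1: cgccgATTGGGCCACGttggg
SDF2L1: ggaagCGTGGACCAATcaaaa

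Each of these sequences occurs once as part of its promoter in GRCh37, the build of the deposited tables. On that build the HSPA5 match with its flanks lies at chr9:128003665-128003693 on the minus strand, and the element itself lies 48 to 66 bases before the RefSeq start. The HSP90B1 matches lie at chr12:104323989-104324017 and chr12:104324094-104324122 on the plus strand, and the CRELD2 match at chr22:50312197-50312225 on the plus strand. The XBP1 match lies at chr22:29196586-29196614 on the minus strand, and another RefSeq promoter of XBP1 held no match. The element's nearest base in XBP1 is 34 bases before the RefSeq start of its promoter, closer than in any other member. Distances are from RefSeq starts, and the GENCODE gene starts of HSP90B1 and CRELD2 lie upstream of their matches. The ERSE-II matches are at chr16:56965932-56965952 for HERPUD1 and at chr22:21996398-21996418 for SDF2L1, both on the plus strand. The third element searched, the unfolded protein response element TGACGTGG, was found in 256 promoters (0.729%) and in none of the members' promoters. DNAJC3, DNAJB9, PDIA4 and MANF held none of the 3 as exact letters in these windows. A match to letters is a description of the promoter and not a measurement of binding.

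**Figure D1:**
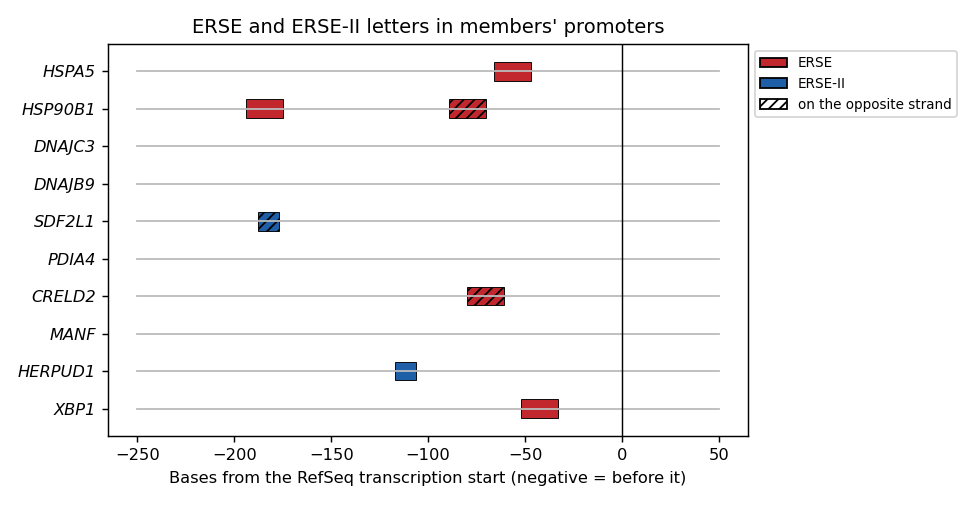
Place of ERSE (red) and ERSE-II (blue) letters in the promoters of the 10 members, in bases from the RefSeq start, with hatching for matches on the opposite strand. HSP90B1 has 2 exact matches, HSPA5, CRELD2, XBP1, HERPUD1 and SDF2L1 have 1 each, and the other members have none.

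HSPA5 is the gene with the best-studied ER stress promoter, so a longer stretch of it is shown, from 150 bases before the RefSeq start down to the last base before the gene's GENCODE start. The 111 bases lie at chr9:128003662-128003772 of GRCh37 on the minus strand, and capitals mark each CCAAT and CCACG, the outer parts of ERSE.
HSPA5 promoter: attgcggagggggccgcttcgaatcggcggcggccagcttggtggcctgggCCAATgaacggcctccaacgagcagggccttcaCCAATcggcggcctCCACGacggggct

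The stretch holds CCAAT in 2 places and CCACG in 1, and the CCAAT nearer to the start is the one that pairs with CCACG at the spacing of ERSE. The farther CCAAT is followed at the same spacing by CCAAC, which is not an exact match. Only exact letters were searched, so imperfect copies of an element were not counted.

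The 10 genes are protein coding and are scattered over the genome, as GENCODE gives them on GRCh37. HSPA5 lies on the minus strand of chromosome 9 (127997132 to 128003661, 8 exons), HSP90B1 on the plus strand of chromosome 12 (104323885 to 104347709, 18 exons) and DNAJC3 on the plus strand of chromosome 13 (96329393 to 96447242, 12 exons). Both DNAJB9 (108210311 to 108215294, plus strand, 3 exons) and PDIA4 (148700154 to 148725754, minus strand, 10 exons) are on chromosome 7. HERPUD1 is on chromosome 16 (56966054 to 56978776, plus strand, 8 exons) and MANF on chromosome 3 (51422722 to 51426828, plus strand, 4 exons). Chromosome 22 holds SDF2L1 (21996591 to 21998588, plus strand, 3 exons), XBP1 (29190543 to 29196585, minus strand, 6 exons) and CRELD2 (50311815 to 50321188, plus strand, 10 exons).

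Members' levels spanned a wide range within each library. The 2 large chaperones were the most abundant. HSP90B1 encodes GRP94, the HSP90 of the ER lumen, and stood at 438 RPKM in the control siRNA library, 514 in DDX3X siRNA, 360 in GFP, 339 in wild type, 355 in T275M and 361 in G302V. HSPA5 encodes BiP, the HSP70 of the ER lumen that also holds the 3 sensors inactive, and stood at 175 RPKM in control siRNA, 199 in DDX3X siRNA, 146 in GFP, 127 in wild type, 134 in T275M and 152 in G302V. For both, the 2 siRNA libraries were the highest and wild type was the lowest, and the siRNA and plasmid libraries did not overlap. The G302V and GFP levels of HSP90B1 could not be told apart by their counting interval, whereas all neighbours in the order of HSPA5 could.

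BiP works with J-domain partners, of which 2 are members, and both were near the bottom of the range. DNAJC3, also called p58IPK, stood at 6.77 RPKM in control siRNA, 9.02 in DDX3X siRNA, 5.47 in GFP, 6.08 in wild type, 6.03 in T275M and 6.82 in G302V. DNAJB9, or ERdj4, which helps to keep IRE1 inactive, stood at 5.32 RPKM in control siRNA, 5.44 in DDX3X siRNA, 3.40 in GFP, 4.55 in wild type, 4.57 in T275M and 4.19 in G302V. The DDX3X siRNA library was the highest and GFP the lowest for both, and the G302V level of DNAJC3 lay above that of control siRNA by less than counting error. For DNAJB9, the 2 siRNA libraries could not be told apart, nor could T275M from wild type or wild type from G302V. SDF2L1, a partner of the ER J-proteins in the lumen, stood at 62.9 RPKM in control siRNA, 61.0 in DDX3X siRNA, 59.7 in GFP, 50.5 in wild type, 46.8 in T275M and 52.2 in G302V. Its 3 libraries without a DDX3X construct lay above the 3 libraries with one, and neighbours among the former could not be told apart.

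PDIA4 (ERp72), a protein disulfide isomerase, had the widest range of the 10, with its highest level 1.75 times its lowest. It stood at 151 RPKM in control siRNA, 176 in DDX3X siRNA, 110 in GFP, 100.4 in wild type, 104 in T275M and 114 in G302V. CRELD2, an ER protein induced by stress, had a narrower range, at 45.9 RPKM in control siRNA, 49.5 in DDX3X siRNA, 39.8 in GFP, 40.0 in wild type, 37.4 in T275M and 40.4 in G302V. MANF, a secreted factor that is kept in the ER by BiP, stood at 100.5 RPKM in control siRNA, 112 in DDX3X siRNA, 76.8 in GFP, 77.8 in wild type, 71.6 in T275M and 80.4 in G302V. In all 3 genes the siRNA libraries were above all 4 plasmid libraries. For CRELD2 and for MANF, G302V could not be told apart from wild type, nor wild type from GFP, and T275M was the lowest library.

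HERPUD1, a membrane protein that recruits the ubiquitin ligase for ER-associated degradation, varied least, with its highest level 1.16 times its lowest. It stood at 26.1 RPKM in control siRNA, 23.8 in DDX3X siRNA, 24.0 in GFP, 24.5 in wild type, 24.5 in T275M and 22.5 in G302V. Its libraries overlapped between the arms, and wild type, T275M, GFP and DDX3X siRNA formed an unbroken run of inseparable neighbours. XBP1, the transcription factor itself, stood at 103.8 RPKM in control siRNA, 102.9 in DDX3X siRNA, 77.2 in GFP, 83.3 in wild type, 75.5 in T275M and 79.5 in G302V. Its 2 siRNA levels could not be told apart and both were above all plasmid libraries. In all, 8 of the 10 members had both siRNA libraries above all 4 plasmid libraries, the others being DNAJC3 and HERPUD1. For SDF2L1, which is among the 8, DDX3X siRNA and GFP could not be told apart. The share of all genes with this order was not computed, so the count only describes the members.

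**Figure D2:**
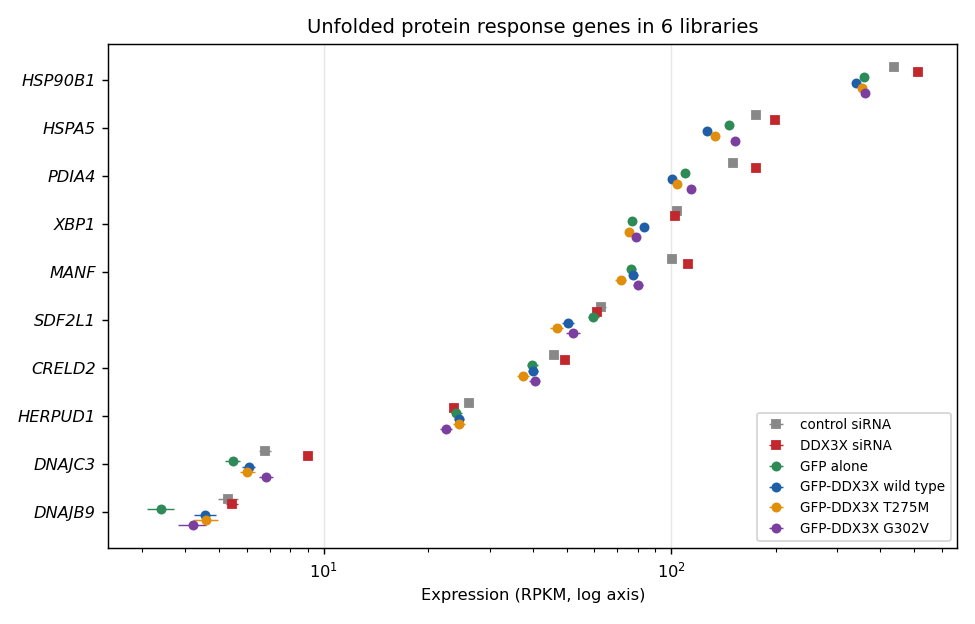
RPKM (log axis) of the 10 members in the 6 libraries, with squares for the siRNA arm, circles for the plasmid arm and bars for the 95% counting interval of each level. HSP90B1 is the most abundant at 339 to 514 RPKM and DNAJB9 the least at 3.40 to 5.44 RPKM. The squares lie to the right of the circles for 8 members, and the share of all genes that do so was not computed.

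Splicing by IRE1 removes 26 bases from the XBP1 mRNA, and the tables list a row for the spliced and a row for the unspliced RefSeq transcript, whose lengths differ by 26. The spliced row held 12573 reads in control siRNA, 33381 in DDX3X siRNA, 7598 in GFP, 9372 in wild type, 6444 in T275M and 6231 in G302V. The unspliced row held 12011, 31976, 7259, 8986, 6184 and 5999 reads in the same order. The ratio of the rows was 1.04 to 1.05 in every library. The rows share nearly all their bases and therefore their reads, so this ratio is not a measure of XBP1 splicing. In the same way the 2 rows of CRELD2 and the 3 of HERPUD1 held nearly the same reads, for example 3832, 3562 and 3832 for HERPUD1 in control siRNA.

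To ask how the members respond to loss of DDX3X, the DDX3X siRNA library was compared with its control. Ratios are differences of log2(RPKM + 1), on which differences between low levels look smaller than they are, and a gene was called at a fold of 1.3 or more (0.38 on the log2 scale) with a counting interval that left out 0. Of the 10 members 0 were called, against 4.86% of the 12694 genes tested called higher and 4.59% called lower. The members' median log2 ratio was 0.13, beside -0.02 over all genes tested. Of the members' intervals, 6 lay above 0, 1 below and 3 held 0. Over all genes tested 45.5% of ratios were above 0. The share of all genes with an interval that left out 0 was not computed, here or in the comparisons below.

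The largest ratio was that of DNAJC3, 33.3% higher in RPKM with a log2 ratio of 0.37 (0.31 to 0.42), just short of the call. It was called with a pseudocount of 0.1 in place of 1, under median-ratio scaling and on CPM, which are not divided by length. HSP90B1 was 17.3% higher (log2 ratio 0.23, 0.22 to 0.24), PDIA4 16.7% higher (0.22, 0.20 to 0.24) and HSPA5 13.8% higher (0.19, 0.17 to 0.20). All 3 encode abundant folding proteins of the ER lumen. MANF was at a log2 ratio of 0.15 (0.11 to 0.19) and CRELD2 at 0.11 (0.06 to 0.16). HERPUD1 was the member with an interval below 0, at -0.13 (-0.18 to -0.08). DNAJB9 (0.03, -0.07 to 0.12), SDF2L1 (-0.04, -0.10 to 0.01) and XBP1 (-0.01, -0.04 to 0.02) showed no difference detectable at this depth, and the values of SDF2L1 and XBP1 moved to 0.03 and 0.06 under median-ratio scaling, which put the median of all genes at 0.041.

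To see whether the constructs moved these genes, each was compared with GFP alone. The 3 comparisons share the GFP library, so they are given side by side and not counted as repeats. Of the 10 members 0 were called in wild type against GFP (6.35% of 12915 genes called higher and 0.612% lower), 0 in T275M against GFP (8.51% of 12912 higher and 1.68% lower) and 0 in G302V against GFP (5.4% of 12775 higher and 1.41% lower). The median log2 ratio of the members was 0.01 in wild type, -0.06 in T275M and 0.05 in G302V, beside 0.05, 0.07 and 0.03 over all genes tested. Median-ratio scaling, which shifts every gene of a library alike, gave members' medians of -0.08, -0.15 and 0.01 beside -0.027, -0.010 and -0.0096 over all genes tested. Under both scalings the members' median was below that of all genes in wild type and T275M and above it in G302V.

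Individual members differed from GFP in opposite directions. DNAJB9 was higher in wild type (log2 ratio 0.34, 0.20 to 0.47), in T275M (0.34, 0.20 to 0.48) and in G302V (0.24, 0.09 to 0.39), and its T275M level in RPKM was 34.6% above that of GFP. The GFP value behind them rests on 473 reads, the smallest number for any member in that library. DNAJB9 was called in wild type and in T275M with a pseudocount of 0.1 or on CPM. SDF2L1 was lower with each construct, at log2 ratios of -0.24 (-0.31 to -0.16) in wild type, -0.35 (-0.43 to -0.26) in T275M and -0.19 (-0.27 to -0.11) in G302V. In T275M it was called lower under median-ratio scaling. DNAJC3 was higher with each, at log2 ratios of 0.13 (0.05 to 0.21), 0.12 (0.04 to 0.21) and 0.27 (0.19 to 0.36).

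The abundant chaperones differed between the constructs. HSPA5 was at -0.21 (-0.23 to -0.19) in wild type, -0.13 (-0.15 to -0.11) in T275M and 0.06 (0.03 to 0.08) in G302V against GFP. PDIA4 followed the same order, at -0.13, -0.08 and 0.05, and each of its 3 intervals left out 0. HSP90B1 was at -0.08 in wild type and -0.02 in T275M with intervals below 0, and at 0.01 (-0.01 to 0.02) in G302V. CRELD2 and MANF had intervals that held 0 in wild type and in G302V and lay below 0 in T275M (-0.09 and -0.10). XBP1 was at 0.11 (0.06 to 0.15) in wild type, -0.03 (-0.08 to 0.02) in T275M and 0.04 (-0.01 to 0.09) in G302V. HERPUD1 was at 0.03, 0.02 and -0.09, with an interval that left out 0 in G302V alone. Under median-ratio scaling, where the median of all genes also turned sign in these 3 comparisons, the sign turned for CRELD2, MANF and HERPUD1 in wild type, for HERPUD1 in T275M, and for HSP90B1 and CRELD2 in G302V.

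**Figure D3:**
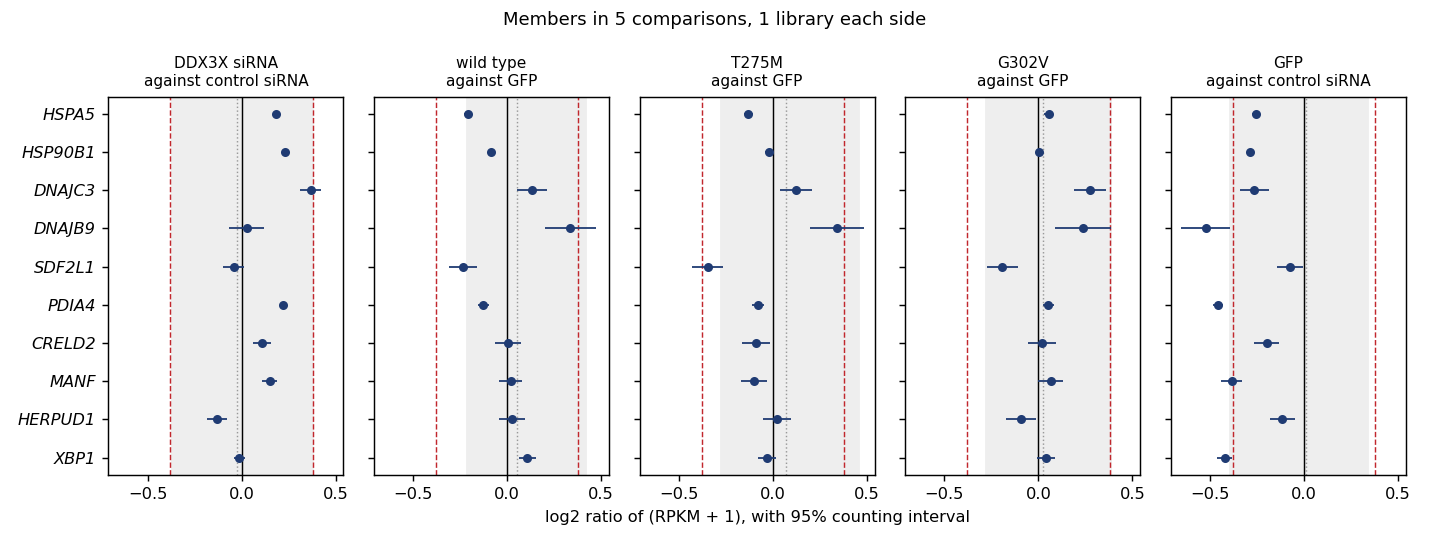
Log2 ratio of (RPKM + 1) of each member in 5 comparisons, with bars for the 95% counting interval, dashed red lines at a fold of 1.3, a grey band from the 5th to the 95th percentile of all genes tested and a dotted line at their median. In the first 4 panels no member is called, and in GFP against control siRNA all 10 lie to the left of 0.

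The constructs were also compared with each other. Of the 10 members 0 were called in T275M against wild type (0.432% of 12973 genes called higher and 0.486% lower), 0 in G302V against wild type (1.99% of 12967 higher and 4.33% lower) and 0 in G302V against T275M (0.557% of 12925 higher and 3% lower). T275M differed little from wild type, with a median of -0.01 beside 0.00 over all genes and with XBP1 (-0.14, -0.18 to -0.09) and MANF (-0.12, -0.18 to -0.05) farthest from 0. G302V against wild type had a median of 0.05 beside -0.03, with HSPA5 at 0.26 (0.24 to 0.29) and PDIA4 at 0.18 (0.15 to 0.21). In G302V against T275M the median was 0.12 beside -0.03. There 8 members had an interval above 0, HERPUD1 had one below 0 (-0.12, -0.20 to -0.04) and that of DNAJB9 held 0. Over all genes tested 41.6% of ratios were above 0, and the share with an interval above 0 was not computed. The G302V library held 65.9% of the DDX3X RPKM of wild type and 58.1% of that of T275M, and the part of this difference in construct level was not tested.

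The 2 control libraries differed more in the members' median than any treated library did from its control. In GFP against control siRNA all 10 members had an interval below 0, whereas 51.9% of all genes tested had a ratio above 0. The share of all genes with an interval below 0 was not computed. The members' median log2 ratio was -0.27, beside 0.01 over all 12730 genes tested. Here 4 of the 10 members were called lower, against 5.46% of genes tested, and 0 were called higher, against 3.6%. The 4 were DNAJB9 at -0.52 (-0.65 to -0.39), PDIA4 at -0.46 (-0.48 to -0.43), XBP1 at -0.42 (-0.46 to -0.38) and MANF at -0.38 (-0.44 to -0.33), which in RPKM are differences of -36.1%, -27.3%, -25.6% and -23.6%. HSP90B1 (-0.28), DNAJC3 (-0.26), HSPA5 (-0.26) and CRELD2 (-0.20) had smaller ratios, and HERPUD1 (-0.11) and SDF2L1 (-0.07) the smallest. The call of MANF was lost under median-ratio scaling, and with a pseudocount of 10 only PDIA4 and XBP1 were called. At a fold of 1.5 the count was 0 of 10 (1.01% of genes tested) and at a fold of 2 it was 0 of 10 (0.055%). The controls differ in reagent, in 48 h against 32 h and in sorting for GFP, and these cannot be told apart.

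The other genes of the ER and of the stress response were read from lists of their own. UPR sensors and transducers, 10 genes such as the kinases EIF2AK3 (PERK) and ERN1 (IRE1), had a median log2 ratio of 0.11 in DDX3X siRNA against control, and 1 was called. It was EIF2AK3, which rose from 5.23 to 7.30 RPKM (0.41, 0.35 to 0.48). Other ER folding factors, 23 of 24 of which were tested, had a median of 0.21, with 18 ratios above 0. In this list 4 rose, namely the glycoprotein sensors UGGT1 (0.38) and UGGT2 (0.49), the disulfide isomerase TXNDC5 (0.42) and HYOU1 (0.38), a BiP exchange factor, and UGGT1 and HYOU1 lay at the threshold itself. The oxidase ERO1LB was at -0.27.

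Of the ER-associated degradation list 19 of 20 genes were in the tables, with a median of 0.13. In it 3 genes rose, SEL1L (0.56), the scaffold of the HRD1 ubiquitin ligase, and the mannosidase-like EDEM3 (0.55) and EDEM1 (0.46), while HERPUD2, a relative of HERPUD1, was at -0.18. SEL1L went from 9.89 to 15.1 RPKM and EDEM3 from 11.3 to 17.0 RPKM. The translocation and COPII list (22 genes) had a median of 0.01 and 1 call, the coat subunit SEC24D, which fell from 11.6 to 8.35 RPKM (-0.43) and was not called under median-ratio scaling. SRP54 (-0.37) and SEC61G (-0.29) were lower and SPCS3 (0.29) higher by less than the call. These shares can be set beside the 4.86% and 4.59% of all genes.

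The ATF4 branch stood on the other side of 0 in the same 2 libraries. Over all genes tested in DDX3X siRNA against control the median was -0.02, 45.5% had ratios above 0 and 4.59% were called lower. The 17 ATF4 genes tested of 18 had a median of -0.36, with 14 ratios below 0, and 8 fell. Among them CHAC1, which breaks down glutathione, went from 6.91 to 1.18 RPKM (-1.86), asparagine synthetase ASNS from 113 to 47.3 RPKM (-1.24) and the serine enzyme PSAT1 from 158 to 92.2 RPKM (-0.77). ATF3, a stress transcription factor, was at 0.06. Cytosolic and mitochondrial chaperones, 14 genes that work outside the ER and many of which answer to heat shock factor, had a median of -0.22 and 0 calls. HSPA8 was at 0.20, DNAJA1 at -0.26, HSPE1 at -0.23 and HSPA1B at -0.28. HSPA1B has a near-identical copy, HSPA1A, and how reads that match both were divided is not given. With median-ratio scaling the medians of the members, the ATF4 branch and these chaperones were 0.20, -0.29 and -0.15, so the signs did not turn. There 7 ATF4 genes were called lower in place of 8.

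In the plasmid arm the ATF4 branch also parted from the members. Against GFP its median was 0.28 in wild type, with 5 of 18 genes called higher. It was 0.10 in T275M with 6 called higher and 2 lower, and -0.16 in G302V with 2 higher and 4 lower. The members had 0 calls in these comparisons. Over all genes tested the medians were 0.05, 0.07 and 0.03. The shares called were 6.35% higher and 0.612% lower in wild type, 8.51% and 1.68% in T275M, and 5.4% and 1.41% in G302V. The branch's T275M median was thus close to that of all genes, and under median-ratio scaling it was 0.016 beside -0.010. With that scaling 5 ATF4 genes in place of 6 were called higher in T275M, and 5 in place of 4 lower in G302V. ATF3 rose with all 3 constructs (0.71, 0.94 and 0.66), and CHAC1 was at 0.26 (0.14 to 0.37) in wild type and fell in T275M (-0.43) and in G302V (-0.76). In G302V against wild type all 18 ATF4 genes had ratios below 0, with a median of -0.35. Of these 8 were called lower, or 6 under median-ratio scaling. Over all genes tested there the median was -0.03, 42.6% had ratios above 0 and 4.33% were called lower. The members had a median of 0.05 there, with 7 ratios above 0. EIF2AK3 rose in T275M (0.46) and was at 0.30 and 0.37 in wild type and G302V. ERO1LB rose in T275M (0.41) and G302V (0.43), HERPUD2 rose in T275M (0.44), and DNAJA1 fell in G302V (-0.42). The T275M calls of ERO1LB and HERPUD2 were lost under median-ratio scaling.

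In GFP against control siRNA the ER lists stood on the same side as the members. Over all 12730 genes tested the median was 0.01, 5.46% were called lower and 3.6% higher. All 23 other folding factors tested had ratios below 0, with a median of -0.37 and 10 called lower, among them UGGT1 (-0.67), TXNDC5 (-0.42) and ERO1LB (-0.39). Sensors had a median of -0.33 with 4 lower (ATF6, CREB3L2, MBTPS1 and MBTPS2), the degradation list -0.20 with SEL1L among those lower, and translocation and COPII -0.23 with 4 lower (SEC11A, SRPRB, SSR1 and SSR3). CREB3L2, a relative of ATF6, went from 17.0 to 12.1 RPKM (-0.46) and SEL1L from 9.89 to 6.65 RPKM (-0.51). Several of these ratios lay at the threshold, and under median-ratio scaling 5 folding factors were called lower in place of 10, and 2 sensors and 3 translocation genes. The ATF4 branch had a median of 0.04, with 2 genes higher and 3 lower, and the cytosolic and mitochondrial chaperones 0.09 with 1 higher (HSPB1, 0.39).

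**Figure D4:**
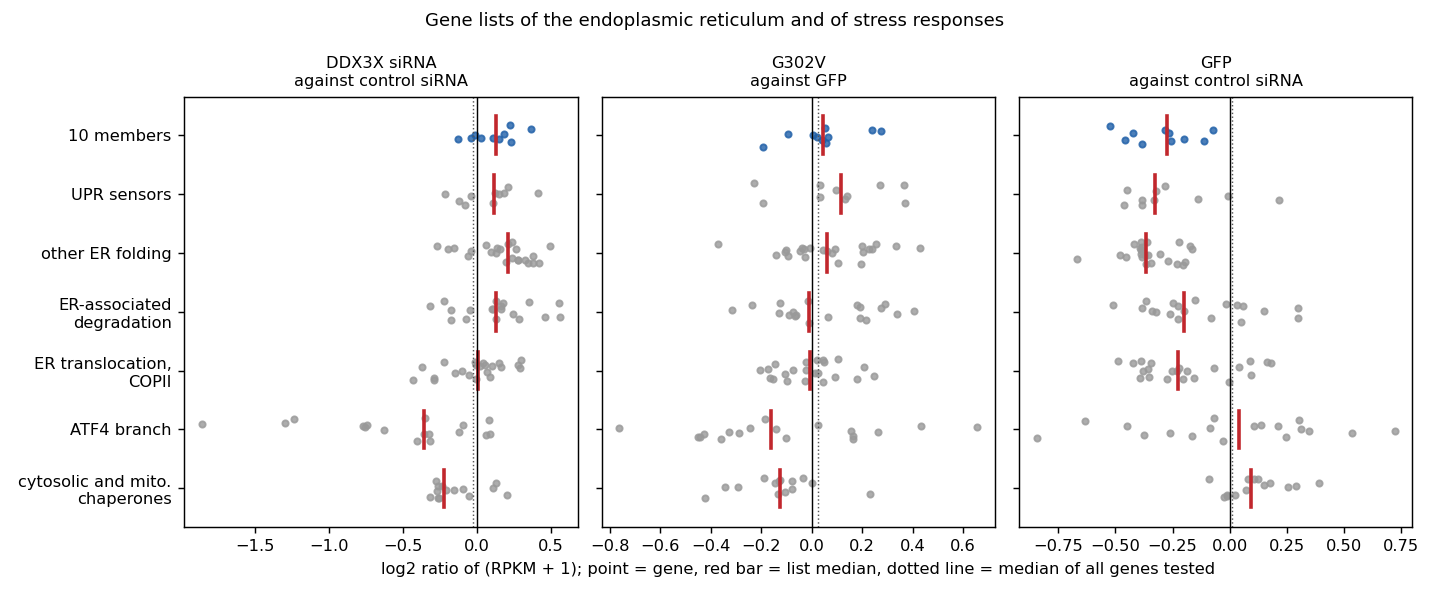
Log2 ratio of (RPKM + 1) of every gene tested in the members and in 6 other lists in 3 comparisons, with points for genes, red bars for list medians and a dotted line for the median of all genes tested. The members' median lies at 0.13, 0.05 and -0.27 in the 3 panels, and that of the ATF4 branch at -0.36, -0.16 and 0.04.

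The tables also hold other genes whose promoters carry ERSE or ERSE-II. There were 38 such genes, of which 28 were in the tables and 21 were tested. Their median log2 ratio was 0.02 in DDX3X siRNA against control, with 11 above and 10 below 0, and -0.01 in GFP against control siRNA, with 9 above and 12 below 0. In DDX3X siRNA 1 was called higher (HYOU1, also a folding factor) and 2 lower (TRIM5 and ZNF143), against 4.86% and 4.59% of all genes tested. In GFP against control siRNA 1 was called lower (CANX), against 5.46%. Among the carriers, CALR, CANX and PDIA6 are also on the list of other folding factors and were named after their values were seen. CALR was at 0.28 and -0.37 in these 2 comparisons, CANX at 0.27 and -0.38 and PDIA6 at 0.23 and -0.36. Some carriers outside that list lay as far from 0 in DDX3X siRNA, in either direction. In the same 2 comparisons SETD3 was at 0.31 and 0.11, RAD9A at -0.28 and 0.16 and RUVBL2 at -0.27 and 0.12. Others lay nearer to 0, such as SERP1 at -0.02 and -0.07 and ALG12 at -0.03 and -0.15.

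Members also varied in how closely they followed each other over the 6 libraries. Each was set against the mean of the other 9 on the log2(RPKM + 1) scale, centred on its own mean, as a description over 6 libraries that fall into 2 arms and differ in depth. MANF (Pearson r 0.992), PDIA4 (0.988), CRELD2 (0.982) and HSP90B1 (0.974) were closest to the others, followed by XBP1 (0.944), HSPA5 (0.933) and DNAJC3 (0.826). DNAJB9 (0.702), SDF2L1 (0.698) and HERPUD1 (0.210) were farthest. Both members with ERSE-II letters are among these 3, whereas DNAJB9 held no element, and a link between element and pattern was not tested. The mean centred level of the 10 was 0.18 in control siRNA, 0.29 in DDX3X siRNA, -0.12 in GFP, -0.12 in wild type, -0.15 in T275M and -0.07 in G302V, so that the 2 arms separate. The share of all genes whose levels separate by arm was not computed, so this only describes the members.

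Outside the list, the genes with the most similar pattern were sought among 3681 genes with 10 RPKM or more in every library and a range of at least 0.3 on the log2 scale. The 5 closest were KDELR2 (r 0.999), SSR3 (0.997), TMED10 (0.997), METTL2A (0.997) and RPN2 (0.995). They are the highest of 3681 values over 6 libraries that fall into 2 arms. How many other genes came close, or belong to the ER, was not counted. KDELR2 is a receptor that returns escaped ER proteins to the ER, and it stood at 88.7 RPKM in control siRNA, 96.1 in DDX3X siRNA, 68.5 in GFP, 68.2 in wild type, 65.8 in T275M and 71.0 in G302V. SSR3 belongs to the translocon, TMED10 to the vesicle coat cargo receptors and RPN2 to the oligosaccharyltransferase that adds sugars to ER proteins, whereas METTL2A modifies tRNA.

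**Figure D5:**
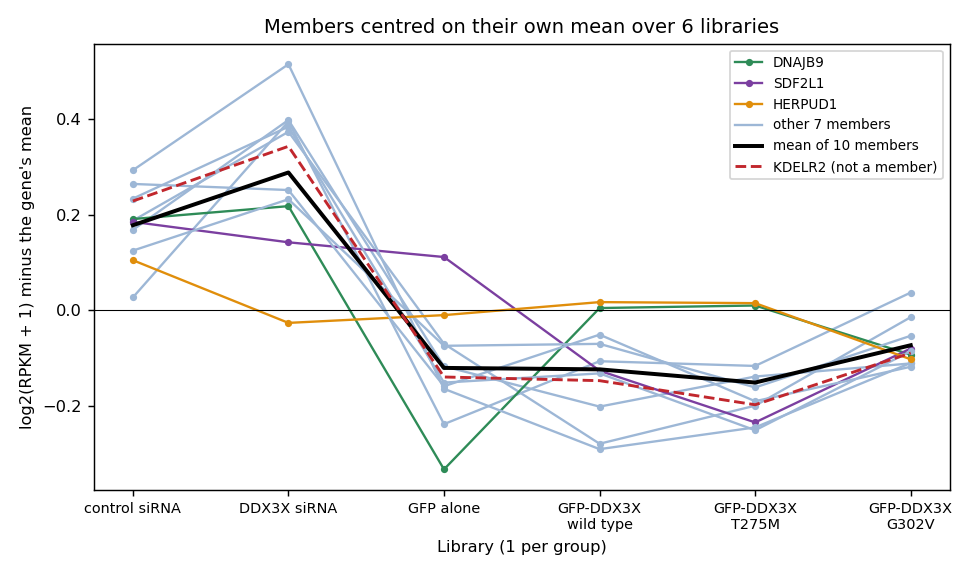
Log2(RPKM + 1) of each member minus its own mean over the 6 libraries, with lines only to join the points of a gene, the mean of the 10 members in black and KDELR2 as a dashed red line. The mean lies at 0.18 and 0.29 in the siRNA libraries and between -0.15 and -0.07 in the plasmid libraries, and HERPUD1, SDF2L1 and DNAJB9 depart most from it.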

How the data were processed

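Total RNA of 6 HEK293T samples was sequenced after TruSeq RNA library preparation, 1 library per group, with groups taken from the labels. The authors deposited RPKM values, 1 per RefSeq transcript row. Per the study's methods, they counted reads by gene and corrected for length and total, and the submitters' processing notes name cutadapt, BWA 0.5.5 and the hg19 build (GRCh37). The methods call this normalisation FPKM, and RPKM is used here because the file headers give it. How reads shared by isoforms or near-identical genes were divided is not given in the sources used here.

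The product of RPKM and row length is a whole number of steps (100% of checked low rows within 0.1), and the step gave the reads behind each row and the depth of each library, 67520000 reads for control siRNA, 180870000 for DDX3X siRNA, 54850000 for GFP, 62740000 for wild type, 47550000 for T275M and 43720000 for G302V. Ratios were differences of log2(RPKM + 1). Their 95% intervals (exact, Clopper-Pearson) come from how a gene's reads divide between both libraries. No test was run because each group has 1 library. The members and lists were chosen with earlier results of these data known, as was the fold of 1.3, so no count supports another. Genes named are all members, DDX3X, up to 4 genes per other list with the largest ratio in the DDX3X siRNA and construct-against-GFP comparisons at 5 RPKM or more, and the 5 genes most like the members. Other genes were named after their values were seen, because they were among the few called in a list or carried an element. Promoters came from a RefSeq table and positions from GENCODE on GRCh37. MANF's promoter had 0 exact matches in GRCh37. Alternatives were median-ratio scaling, CPM from the recovered reads, pseudocounts of 0.1 and 10, a minimum of 10 RPKM or of 1 read alone, the sum of a symbol's rows, and folds of 1.5 and 2. The calculations used Python 3.11.15, numpy 2.4.6, pandas 2.3.3 and scipy 1.17.1, and were tested on simulated data. Some results of the degradation list are not reported here.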

Additional observations from a re-analysis of the deposited data

How the results depend on the processing

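Alternatives were run in full for the 10 members, and the other lists were recomputed under median-ratio scaling alone and the other carriers of ERSE or ERSE-II under none. No called member turned direction under the alternatives run. Counts on 1 member near the threshold did move. The count of members called in DDX3X siRNA against control was 0 and became 1 (DNAJC3) with a pseudocount of 0.1, on CPM and under median-ratio scaling. In wild type against GFP and in T275M against GFP the counts of 0 became 1 (DNAJB9) with a pseudocount of 0.1 and on CPM, and in T275M also 1 (SDF2L1) under median-ratio scaling. In GFP against control siRNA the count of 4 became 2 (PDIA4 and XBP1) with a pseudocount of 10, with a median of -0.22, and 0 at folds of 1.5 and 2. Median-ratio scaling gave medians of 0.20 for DDX3X siRNA, -0.078 for wild type and -0.15 for T275M, and 3 members called in GFP against control siRNA, without MANF. It moved 36 of the 80 member values beyond their counting intervals, since it multiplies every gene of a library alike, and turned the sign of 8, in comparisons where the median of all genes turned too. A pseudocount of 10 moved 8 values, all of them smaller in size. A filter of 1 read alone, summed rows and CPM moved none of 80, and the minimum of 10 RPKM, which leaves out DNAJC3 and DNAJB9, none of 64. No paired analysis was possible because each group has 1 library and the labels carry no replicate numbers. For the same reason no library could be left out, and differences between cultures cannot be told from the differences between groups. Depth limits DNAJB9 most, with 465 to 911 reads outside the DDX3X siRNA library.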
